A study of Caenorhabditis elegans with 12 samples.

Results

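Neuropeptides and insulin-like peptides are short secreted signals that are cut from larger precursors, packed into dense core vesicles and released to act on receptors of other cells. The genes described here are the protein-coding genes whose symbol starts with flp-, nlp- or ins-, together with daf-28, in a table of TPM, the length-corrected share of a library's transcripts that a gene holds. The symbols were taken from the WBcel235 annotation of the Caenorhabditis elegans genome. The rule found 141 genes of 46926 in the table, namely 31 flp genes, 71 nlp genes and 39 insulin-like genes, the last being 38 ins genes and daf-28. The rule used names only and no measured value.

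The flp genes encode FMRFamide-like peptides, most of which are made in neurons. The nlp genes are a mixed class of other neuropeptide-like proteins, and part of them encode glycine-rich antimicrobial peptides of the epidermis. Insulin-like peptides act on a single insulin receptor, DAF-2, as agonists or antagonists, and through it set growth, dauer entry, stress resistance and lifespan in this animal. Peptide precursors are cleaved by proprotein convertases such as EGL-3, trimmed by the carboxypeptidase EGL-21 and amidated before release.

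Polyadenylated RNA of whole worms at the L4 larval stage was sequenced in 4 strains with 3 biological replicate libraries each. The strains were the double mutant nuo-6; itr-1, which carries nuo-6(qm200) and itr-1(sa73), the single mutant nuo-6(qm200), the single mutant itr-1(sa73), and N2, the wild type. The gene nuo-6 encodes a subunit of mitochondrial complex I and itr-1 encodes the inositol trisphosphate receptor, a calcium channel of the endoplasmic reticulum. All 4 strains, N2 included, were fed HT115 bacteria that carried an empty vector, and cultures were started from bleached animals. The comparisons of the double mutant, nuo-6 and itr-1 with N2 share the N2 libraries.

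TPM keeps no sequencing depth, so depth is unknown and the 3 libraries of a strain set the precision. Between 13879 and 14902 genes reached 1 TPM in a library. RNA of the mutated genes was present in the strains that carry the alleles, with a mean of 309 TPM for nuo-6 in the double mutant and 391.9 TPM in nuo-6, against 324 TPM in N2, and a mean of 33.7 TPM for itr-1 in the double mutant and 27.1 TPM in itr-1, against 21.2 TPM in N2. These levels are no check of the labels, since both alleles are known as missense changes. A stage score, here the average over 17 genes of the oocyte and early embryo on the log2(TPM + 1) scale, was 4.56 to 5.88 in the double mutant, 4.82 to 5.05 in nuo-6 and 5.05 to 6.19 in itr-1, against 3.57 to 4.47 in N2. Of 28 moulting cycle genes, 16 fell and 3 rose in the double mutant against N2, 15 fell and 1 rose in nuo-6, and 20 fell and 2 rose in itr-1. Among all genes tested, 17%, 15% and 11.1% fell in the same order, and 46.3%, 37.3% and 29% rose. Counts of peptide genes with the stage score as a covariate are given beside the results. Every mutant library scored above every N2 library, so the score is confounded with strain in each comparison with N2. A call that is kept or lost with this covariate therefore cannot separate stage from strain. Whole worms were sequenced, so fewer or more cells of a type and less or more RNA per cell cannot be told apart.

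The 3 classes differed in level. Of the 141 genes, 81 had a mean of at least 10 TPM over the 12 libraries, and the 5 above 100 TPM were all nlp genes. The median of the genes that entered the test was 26.2 TPM for flp, 16.7 TPM for nlp and 7.08 TPM for insulin-like genes. Expression was concentrated in a few genes of the nlp and insulin-like classes. The pair nlp-33 and nlp-24 held 43.5% of the summed nlp TPM, ins-35 held 21.8% of the insulin-like sum, and the highest flp gene, flp-28, held 7.79% of the flp sum. The nlp-24 gene encodes peptides with opioid-like sequence, and is listed here with nlp-33 among the epidermal antimicrobial peptide genes.

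In total 123 of the 141 genes passed the filter of 1 TPM in at least 3 libraries and entered the test, namely 30 flp, 66 nlp and 27 insulin-like genes. The 18 others were flp-23, nlp-22, nlp-23, nlp-32, nlp-39 and nlp-60, and 12 insulin-like genes. Both nlp-22, which encodes a sleep-promoting peptide of a single neuron pair, and nlp-39 were listed at 0 in every library. Among the untested insulin-like genes the highest single value was 1.25 TPM, for ins-20. The filter passes a gene that is high in a single strain, so the counts of tested genes do not stand for all 141.

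The genes also differed in where they lie. On chromosome X lay 13 of the 31 flp genes, 41.9%, and 19 of the 71 nlp genes, 26.8%, but 2 of the 39 insulin-like genes, 5.13%, against 13.7% of all protein-coding genes in the table. Of the insulin-like genes, 22 lay within 5 kb of another gene of the set, as did 10 nlp and 3 flp genes. Of the genes tested on X, 27 of 31 members rose in the double mutant against N2, as did 65 of 92 members elsewhere. Of all genes tested, 47.5% on X and 46.2% elsewhere rose in that comparison.

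Summed by class, flp transcripts were most abundant in the double mutant and least abundant in N2. The 31 flp genes together had 1389, 1222 and 1420.3 TPM in the double-mutant libraries, 1147, 1139 and 1106 TPM in nuo-6, 1013, 912 and 1032 TPM in itr-1 and 801, 796 and 793 TPM in N2, in the order of the replicate numbers. No strain overlapped another in the flp sum of unscaled TPM. The 39 insulin-like genes had 411, 386 and 474 TPM in the double mutant, 364, 330.2 and 364 TPM in nuo-6, 274, 227 and 277 TPM in itr-1 and 217, 205 and 215 TPM in N2, again without overlap between strains. The 71 nlp genes had 3925, 3522 and 3921 TPM in the double mutant, 3971, 3682 and 3749 TPM in nuo-6, 3122, 3050.2 and 3248 TPM in itr-1 and 3105, 2833 and 2868 TPM in N2. Here the double mutant overlapped nuo-6, and itr-1 overlapped N2. Without its 5 highest genes the nlp sum averaged 1621 ± 118.9 TPM in the double mutant, 1384 ± 30.6 TPM in nuo-6, 1216 ± 53.3 TPM in itr-1 and 949 ± 89.1 TPM in N2 (SD, n = 3 each), and the strains no longer overlapped. The lack of overlap holds for unscaled TPM only. Under median-of-ratios scaling the double mutant overlapped nuo-6, and itr-1 overlapped N2, in the flp and insulin-like sums and in the nlp sum without its 5 highest genes. A sum over chosen genes gets no test.

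**Figure D1:**
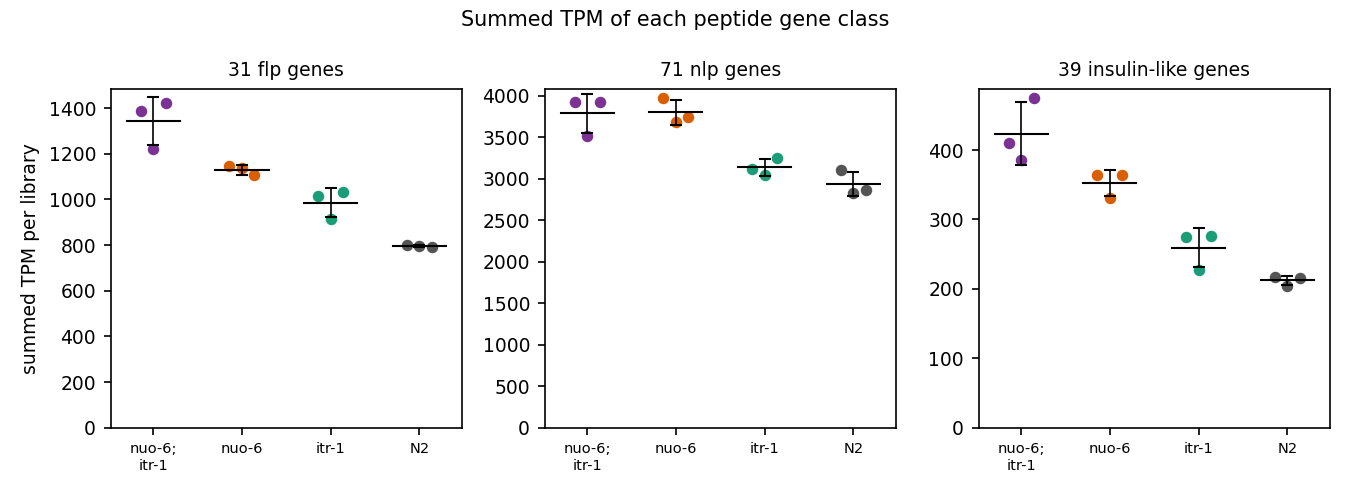
Summed TPM of the 31 flp, 71 nlp and 39 insulin-like genes (y axis, TPM) by strain (x axis), with points for the 3 libraries and bars for the mean and SD. The flp and insulin-like sums step down from the double mutant (means 1344 and 424 TPM) to N2 (means 797 and 212 TPM), while the nlp sums of the double mutant and nuo-6 lie together at means of 3789 and 3801 TPM.

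More peptide genes rose than fell in each mutant strain against N2, and in unscaled TPM the share that rose was highest among flp genes. In nuo-6 against N2, 75 of 123 members rose and 3 fell (63.4% called), while 52.3% of all 15230 genes tested were called, 37.3% as rises and 15% as falls. The rises were 23 of 30 flp, 42 of 66 nlp and 10 of 27 insulin-like genes. In itr-1 against N2, 52 members rose and 4 fell (45.5% called, against 40.1% of all genes, 29% as rises and 11.1% as falls), namely 19 flp, 26 nlp and 7 insulin-like rises. In the double mutant against N2, 92 members rose and 5 fell (78.9% called, against 63.3% of all genes, 46.3% as rises and 17% as falls), namely 28 flp, 50 nlp and 14 insulin-like rises. A call is an adjusted p under 0.05 in limma, with the Benjamini-Hochberg method applied to every gene that entered the test. The called share of members in itr-1 lay close to that of all genes. Rises of insulin-like genes made up 37% of the tested class in nuo-6, 25.9% in itr-1 and 51.9% in the double mutant. In nuo-6 this was about the share of all genes, in itr-1 it was below it, and in the double mutant it was somewhat above it.

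Median folds lay above that of all genes in each class and strain. The median log2 fold against N2 was 0.76 for flp, 0.72 for nlp and 0.50 for insulin-like genes in the double mutant, where the median of all genes was 0.25. It was 0.50, 0.43 and 0.37 in nuo-6, with 0.18 for all genes, and 0.34, 0.22 and 0.23 in itr-1, with 0.14 for all genes. Rises above 1 on the log2 scale were called for 24 of 123 members in the double mutant, 19.5%, and for 12.2% of all genes tested. In nuo-6 they were called for 8 members, 6.50%, and for 8.74% of all genes, and in itr-1 for 7 members, 5.69%, and for 6.43% of all genes. In neither single mutant was the share of large rises among peptide genes above that of all genes. With 8 and 7 members the gap to all genes rests on few genes.

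TPM sums to the same total in every library, so a shift of abundant genes moves all others. With median-of-ratios scaling the median of all genes moved by -0.16 in nuo-6, by -0.14 in itr-1 and by -0.24 in the double mutant. Under this scaling 46 members rose and 7 fell in nuo-6, 22 rose and 10 fell in itr-1, and 70 rose and 8 fell in the double mutant. Rises thus made up 37.4% of members in nuo-6, 17.9% in itr-1 and 56.9% in the double mutant, while 24.6%, 17.3% and 28.9% of all genes rose. In itr-1 the share of members that rose was then close to that of all genes. Falls made up 5.69%, 8.13% and 6.50% of members and 24.5%, 21.2% and 29% of all genes. The flp rises were then 15 in nuo-6, 6 in itr-1 and 22 in the double mutant, the nlp rises 24, 13 and 39, and the insulin-like rises 7, 3 and 9. The insulin-like rises were 25.9%, 11.1% and 33.3% of the tested class. In itr-1 the rises were 20% of tested flp and 19.7% of tested nlp genes, so these 2 classes hardly differed there. The classes also differ in level, and the part of level in these shares was not tested. In itr-1, 4 of 27 insulin-like genes fell, 14.8%, where 21.2% of all genes did. When the stage score was a covariate, 80 members rose and 4 fell in nuo-6, 44 rose and 1 fell in itr-1, and 89 rose and 4 fell in the double mutant. Rises then made up 65% of members in nuo-6, 35.8% in itr-1 and 72.4% in the double mutant, while 32.8%, 9.7% and 36.7% of all genes rose. Genes used throughout the nervous system had smaller median folds. Of 19 such neuron-wide genes, 14 rose and none fell in the double mutant, 11 rose in nuo-6 and 6 rose in itr-1, with median log2 folds of 0.32, 0.27 and 0.15. Under median-of-ratios scaling 4 rose and 2 fell in the double mutant, 4 rose and 3 fell in nuo-6, and 4 rose in itr-1. Their summed level was 690 to 710.3 TPM in the double mutant, 631 to 681 TPM in nuo-6 and 571 to 579.5 TPM in itr-1, against 490.4 to 509.7 TPM in N2. The part of these genes in the peptide results was not tested.

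**Figure D2:**
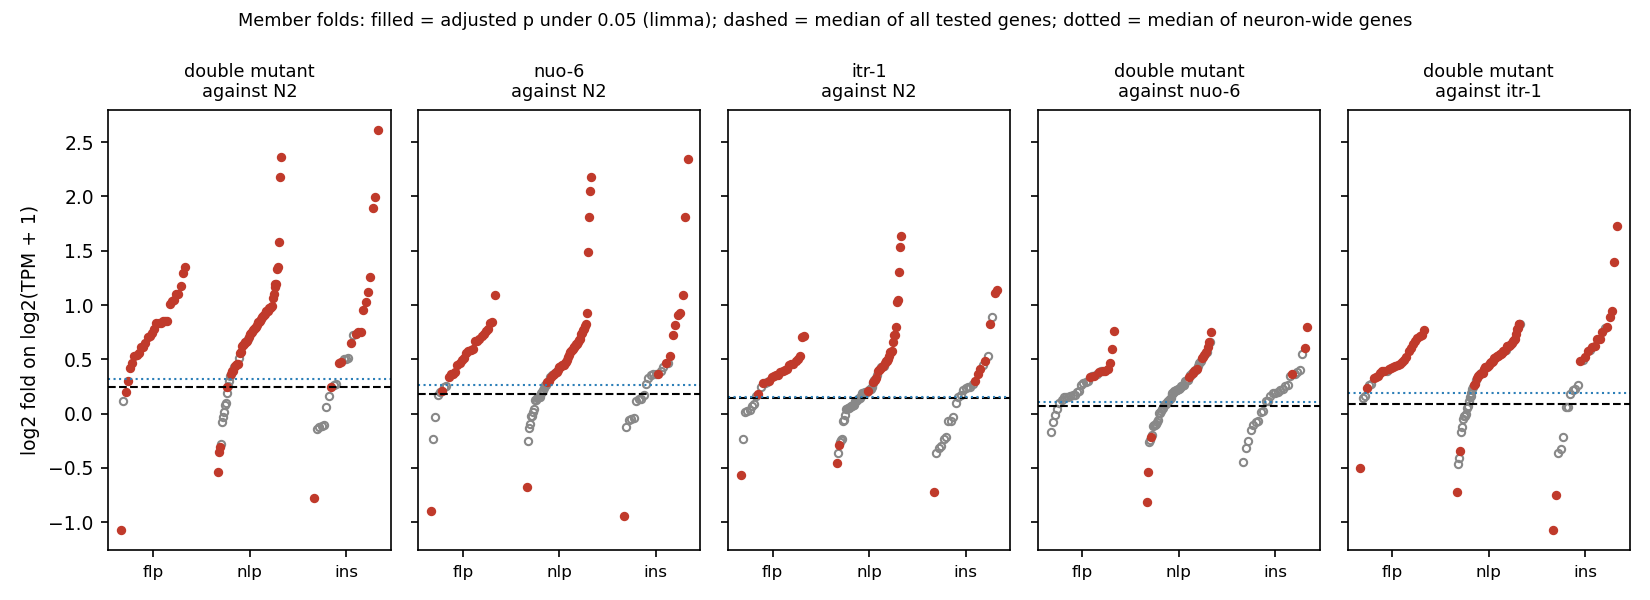
Log2 folds of the 123 tested members on log2(TPM + 1) (y axis) by class (x axis) in 5 comparisons, each class sorted from low to high. Filled points have an adjusted p under 0.05, the dashed line is the median of all genes tested and the dotted line that of 19 neuron-wide genes; in the double mutant against N2 only 1 of 30 flp genes falls, flp-8 at -1.07.

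The double mutant differed from itr-1 in more members than from nuo-6. Against itr-1, 78 members rose and 5 fell (67.5% called, against 45.7% of all genes, 29.3% as rises and 16.4% as falls), namely 24 flp, 41 nlp and 13 insulin-like rises. Median-of-ratios scaling gave 55 rises and 6 falls, where 21.5% of all genes rose and 22.5% fell. Against nuo-6, 23 members rose and 3 fell (21.1% called, against 15.4% of all genes, 9.99% as rises and 5.46% as falls), namely 9 flp, 11 nlp and 3 insulin-like rises, and median-of-ratios scaling gave 12 rises and 3 falls, where 5.6% of all genes rose and 7.6% fell. Rises above 1 on the log2 scale were called for 2 members against itr-1, ins-35 and ins-5, which is 1.63% of members, and for 4.71% of all genes. Against nuo-6 the largest member fold was 0.80, so no member passed 1, while 1.2% of all genes did. The count against nuo-6 rested on single libraries. It was 41 without double-mutant replicate 2, 15 without double-mutant replicate 3 and 12 without nuo-6 replicate 3, and 53 when the stage score was a covariate, where 16% of all genes rose and 9.36% fell. The mean TPM fell in the order double mutant, nuo-6, itr-1, N2 for 70 of 123 members, 56.9%, and for 22.4% of all genes tested. That order held for 22 of 30 flp, 38 of 66 nlp and 10 of 27 insulin-like genes. Under median-of-ratios scaling it held for 43.1% of members and 13.4% of all genes.

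Among the flp genes, flp-3 and flp-2 had the largest rises in the double mutant. The flp-3 gene (chromosome X from 10091946 to 10092964) had 31.5, 25.3 and 34 TPM in the double mutant, 27.4, 23.3 and 24.1 TPM in nuo-6, 20.0, 18.3 and 18.3 TPM in itr-1 and 11.2, 11.4 and 10.9 TPM in N2. Every mutant library lay above every N2 library. The log2 fold against N2 was 1.35 (SE 0.10, adjusted p = 1.33e-06) in the double mutant, 1.09 (SE 0.10, adjusted p = 9.84e-06) in nuo-6 and 0.71 (SE 0.10, adjusted p = 0.000533) in itr-1. The flp-2 gene, whose peptides take part in the response to oxidative stress in this animal, had 25.3, 28.9 and 30.5 TPM in the double mutant, 19.9, 21.7 and 18.9 TPM in nuo-6, 15.8, 14.4 and 18.4 TPM in itr-1 and 10.5, 11.2 and 11 TPM in N2. No 2 strains overlapped, and the log2 fold of the double mutant was 1.30 (SE 0.10, adjusted p = 1.38e-06) against N2 and 0.46 (SE 0.10, adjusted p = 0.0101) against nuo-6, the second lost without nuo-6 replicate 3 (adjusted p = 0.0518). The highest flp gene, flp-28, is a near neighbour, and flp-2, flp-3 and flp-28 lie within 7.93 kb of chromosome X (10087314 to 10095245). It averaged 89.7 ± 6.29 TPM in the double mutant, 94.3 ± 2.66 TPM in nuo-6, 81.1 ± 7.25 TPM in itr-1 and 66.7 ± 6.25 TPM in N2 (SD, n = 3 each), a log2 fold of 0.42 (SE 0.08, adjusted p = 0.00119) in the double mutant and 0.50 (SE 0.08, adjusted p = 0.000556) in nuo-6 against N2. Under median-of-ratios scaling the flp-28 fold of the double mutant was 0.15 and was not called. All 3 genes lie opposite the gene W07E11.1, and as the strand setting of the counting is not given, its reads cannot be told apart from theirs. W07E11.1 was listed at 27.3 to 29.1 TPM in the double mutant, 26 to 30.8 TPM in nuo-6, 30.7 to 35.4 TPM in itr-1 and 26.3 to 35.5 TPM in N2.

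Several flp genes with known roles rose in the double mutant. The flp-1 gene, made in the AVK interneurons and acting on locomotion, had 104.3, 90.0 and 112 TPM in the double mutant, 78.9, 78 and 74 TPM in nuo-6, 65.9, 53.8 and 65.1 TPM in itr-1 and 42.6, 44.4 and 46.3 TPM in N2. No 2 strains overlapped. Its log2 fold against N2 was 1.18 (SE 0.09, adjusted p = 1.69e-06) in the double mutant, 0.78 (SE 0.09, adjusted p = 4.73e-05) in nuo-6 and 0.46 (SE 0.09, adjusted p = 0.00363) in itr-1. The flp-11 gene, which encodes the main sleep-promoting peptides of the RIS neuron, had 74, 66.7 and 76.1 TPM in the double mutant, 60.1, 54.4 and 55.3 TPM in nuo-6, 50.03, 48.3 and 51.5 TPM in itr-1 and 40.5, 39.4 and 38.3 TPM in N2. Its strains did not overlap either, and its log2 fold was 0.86 (SE 0.06, adjusted p = 1.12e-06) for the double mutant against N2 and 0.35 (SE 0.06, adjusted p = 0.00455) against nuo-6. Opposite flp-1 lies daf-10, at 0.339 to 0.666 TPM in the 12 libraries. Opposite flp-11 lies tmem-135, at 15.4 to 18.5 TPM in the double mutant, 10.2 to 12.8 TPM in nuo-6 and 10.8 to 14.7 TPM in itr-1, against 7.38 to 7.83 TPM in N2, and its reads cannot be told apart from those of flp-11. Both flp-18 and flp-21 encode ligands of the receptor NPR-1. They averaged 48.6 ± 5.4 and 26.2 ± 3.57 TPM in the double mutant, 36.8 ± 2.38 and 20.4 ± 1.25 TPM in nuo-6, 37.3 ± 4.12 and 19.7 ± 1.4 TPM in itr-1, and 26.4 ± 2.23 and 11.6 ± 0.567 TPM in N2 (SD, n = 3 each). The rise of the double mutant against N2 was 0.86 (SE 0.10, adjusted p = 4.16e-05) for flp-18 and 1.10 (SE 0.10, adjusted p = 4.52e-06) for flp-21. Of the other high flp genes, flp-9, flp-12 and flp-22 rose in the double mutant by 0.83, 1.04 and 0.61 on the log2 scale against N2 (adjusted p = 4.73e-06, 3.37e-06 and 1.73e-05), and flp-14 by 0.65 (SE 0.10, adjusted p = 0.000172).

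A single flp gene fell in each mutant against N2, while median-of-ratios scaling gave 1 fall in the double mutant, 2 in nuo-6 and 2 in itr-1. The flp-8 gene (chromosome X from 14881419 to 14882267) had 18.3, 14 and 18.5 TPM in the double mutant, 18, 18.7 and 20.7 TPM in nuo-6, 26.4, 21.6 and 24.8 TPM in itr-1 and 40.8, 29 and 40.5 TPM in N2. All 9 mutant libraries lay below all 3 N2 libraries. Against N2 the log2 fold was -1.07 (SE 0.15, adjusted p = 8.77e-05) in the double mutant, -0.90 (SE 0.15, adjusted p = 0.000423) in nuo-6 and -0.57 (SE 0.15, adjusted p = 0.0114) in itr-1. With the stage score as a covariate the itr-1 fold was -0.079 (adjusted p = 0.775). It also fell in the double mutant against itr-1, with a log2 fold of -0.50 (SE 0.15, adjusted p = 0.0165), a call that was lost without double-mutant replicate 2 (adjusted p = 0.054) and without itr-1 replicate 1 (adjusted p = 0.0582). Median-of-ratios scaling kept the falls against N2, at -1.33 in the double mutant, -1.08 in nuo-6 and -0.73 in itr-1.

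The insulin-like genes held the largest fold of the whole set. The ins-35 gene (chromosome V from 20375536 to 20376302) had 104.1, 95.6 and 155 TPM in the double mutant, 103, 67 and 128 TPM in nuo-6, 43.2, 20.9 and 44.4 TPM in itr-1 and 19.3, 13.1 and 23.3 TPM in N2. Double-mutant and nuo-6 libraries overlapped each other and lay above all libraries of itr-1 and N2. The log2 fold against N2 was 2.61 (SE 0.33, adjusted p = 5.23e-05) in the double mutant and 2.34 (SE 0.33, adjusted p = 0.000162) in nuo-6, and the double mutant lay above itr-1 by 1.72 (SE 0.33, adjusted p = 0.00187). In itr-1 against N2 the fold was 0.89 (SE 0.33, adjusted p = 0.0524), which missed the threshold, and the libraries overlapped. Replicate 2 was the lowest ins-35 library in each of the 4 strains, and it had the highest stage score in each.

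Literature agonists of DAF-2 moved in both directions gene by gene, while their sum was higher in every mutant strain. The list holds daf-28, ins-3, ins-4, ins-6, ins-7, ins-9 and ins-32, of which 6 were tested. It was written by hand and may miss agonists. It leaves out ins-35, whose level alone exceeded the list sum in the double mutant and nuo-6. The counts, medians and sums therefore stand for these 7 genes only. In the double mutant 2 rose and 1 fell, in nuo-6 2 rose and 1 fell, and in itr-1 3 rose, against N2, with median log2 folds of -0.025, 0.23 and 0.20. Median-of-ratios scaling gave 2 rises and 2 falls in the double mutant, 2 rises and 1 fall in nuo-6, and 1 rise and 1 fall in itr-1. Without that scaling 46.3%, 37.3% and 29% of all genes rose in the same order, and 17%, 15% and 11.1% fell. Summed over the 7 genes, the level was 56.6 to 65.0 TPM in the double mutant, 52.2 to 59.0 TPM in nuo-6 and 47.3 to 58.5 TPM in itr-1, against 37.0 to 38.8 TPM in N2, so that no mutant overlapped N2. The daf-28 gene, which encodes an agonist that favours reproductive growth over dauer arrest, had 28.9, 27.4 and 32.2 TPM in the double mutant, 27.1, 23.1 and 26.6 TPM in nuo-6, 19.8, 14.2 and 17.7 TPM in itr-1 and 13.1, 11.7 and 14.4 TPM in N2. Double-mutant and nuo-6 libraries lay above all others. Its log2 fold against N2 was 1.12 (SE 0.12, adjusted p = 1.76e-05) in the double mutant and 0.92 (SE 0.12, adjusted p = 0.000106) in nuo-6. In itr-1 it was 0.37 (SE 0.12, adjusted p = 0.034), a call lost without itr-1 replicate 1 (adjusted p = 0.12), itr-1 replicate 3 (0.0788), N2 replicate 1 (0.0791) or N2 replicate 2 (0.104).

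The agonist genes ins-4 and ins-6 lie with ins-5 in 4.64 kb of chromosome II (5996366 to 6001009), and the 3 neighbours differed. The ins-4 gene had 10.4, 11.3 and 14.2 TPM in the double mutant, 9.65, 9.16 and 8.62 TPM in nuo-6, 5.55, 5.34 and 6.13 TPM in itr-1 and 4.59, 4.56 and 4.05 TPM in N2, a log2 fold against N2 of 1.25 (SE 0.11, adjusted p = 3.94e-06) in the double mutant and 0.91 (SE 0.11, adjusted p = 5.94e-05) in nuo-6. The ins-5 gene had 20.9, 15.9 and 25.3 TPM in the double mutant, 12.8, 10.9 and 10.3 TPM in nuo-6, 8.45, 6.85 and 6.14 TPM in itr-1 and 4.25, 5.95 and 4.25 TPM in N2, the largest rise of the double mutant against nuo-6 among members, at 0.80 (SE 0.18, adjusted p = 0.0121). That call was lost without nuo-6 replicate 3 (adjusted p = 0.0561). In both genes all double-mutant and nuo-6 libraries lay above all itr-1 and N2 libraries. The ins-6 gene averaged 5.67 ± 0.642 TPM in the double mutant, 6.98 ± 1.29 TPM in nuo-6, 4.88 ± 0.571 TPM in itr-1 and 6.2 ± 0.184 TPM in N2 (SD, n = 3 each), and no comparison between strains was called. The ins-3 gene, an agonist gene close by on the same chromosome, averaged 2.61 TPM in the double mutant, 3.93 TPM in nuo-6, 3.1 TPM in itr-1 and 2.86 TPM in N2, likewise without a call.

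The agonist gene ins-7, known for its expression in the intestine, was raised in itr-1. It had 6.87, 11.2 and 8.64 TPM in the double mutant, 6.84, 10.6 and 10.8 TPM in nuo-6, 21.4, 17.2 and 20.0 TPM in itr-1 and 7.94, 9.18 and 7.87 TPM in N2. All itr-1 libraries lay above all others, and the other 3 strains overlapped. The log2 fold was 1.14 (SE 0.18, adjusted p = 0.00104) in itr-1 against N2 and -1.07 (SE 0.18, adjusted p = 0.000929) in the double mutant against itr-1. With the stage score as a covariate the itr-1 fold was 0.96 (adjusted p = 0.0634). The agonist gene ins-9 was low throughout. It had 1.01, 2.15 and 1 TPM in the double mutant, 0.519, 1.99 and 0.991 TPM in nuo-6, 3.55, 2.3 and 3 TPM in itr-1 and 2.85, 3.05 and 3.09 TPM in N2, and fell against N2, with a log2 fold of -0.78 (SE 0.24, adjusted p = 0.0162) in the double mutant and -0.94 (SE 0.24, adjusted p = 0.00779) in nuo-6. Its call in the double mutant was lost without double-mutant replicate 1 (adjusted p = 0.0605) or replicate 3 (0.0532).

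**Figure D3:**
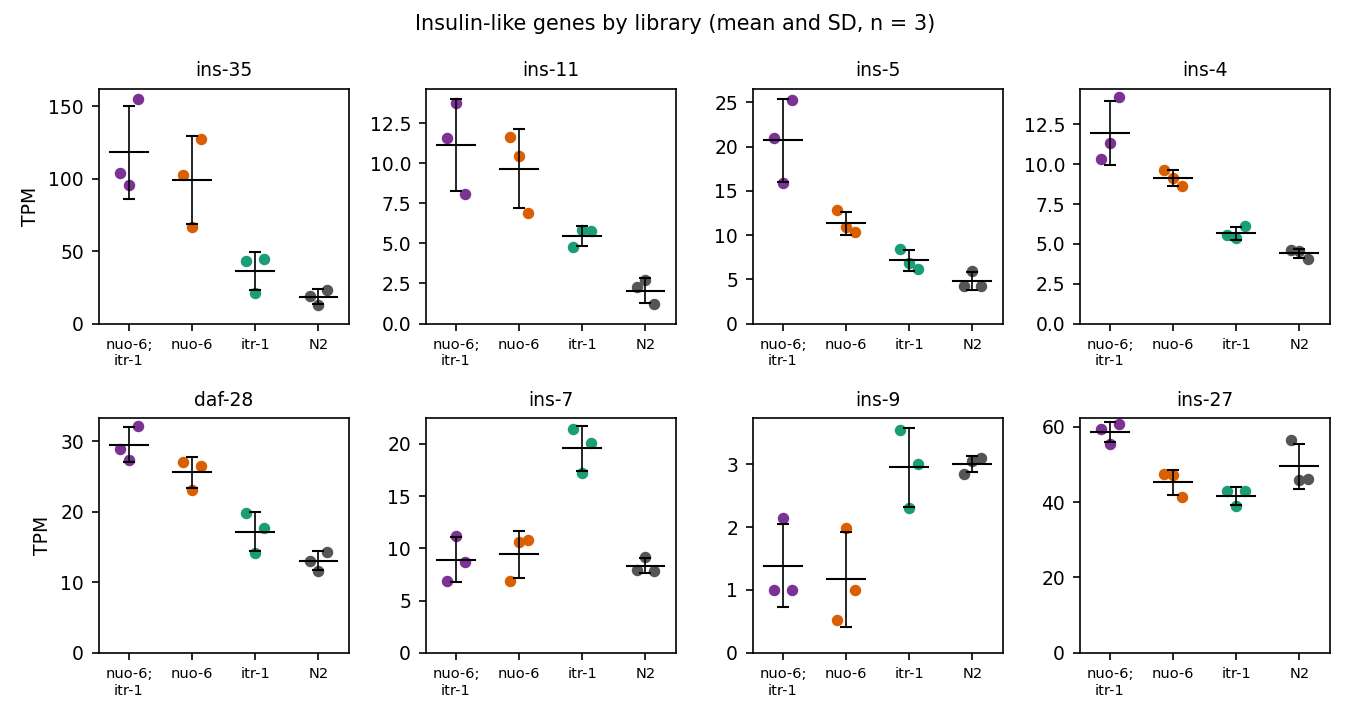
TPM of 8 insulin-like genes (y axis, TPM, each panel on its own scale) by strain (x axis), with points for the 3 libraries and bars for the mean and SD. Panels ins-35, ins-11, ins-5, ins-4 and daf-28 step down from the double mutant to N2, while ins-7 is high only in itr-1 at a mean of 19.6 TPM and ins-9 is low in the double mutant and nuo-6 at means of 1.39 and 1.17 TPM.

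Literature antagonists of DAF-2 were raised in the double mutant. All 4 genes of the list, ins-1, ins-11, ins-17 and ins-18, rose in the double mutant against N2, 2 rose in nuo-6 and 2 in itr-1, with median log2 folds of 0.99, 0.58 and 0.34. Median-of-ratios scaling left 3 rises in the double mutant (all but ins-1), 2 in nuo-6 and 1 in itr-1. The shares of all genes that rose were 46.3%, 37.3% and 29%, and 28.9%, 24.6% and 17.3% with that scaling. The ins-11 gene, which acts in the intestine in pathogen avoidance, had 11.6, 13.7 and 8.06 TPM in the double mutant, 11.7, 10.5 and 6.88 TPM in nuo-6, 4.76, 5.85 and 5.75 TPM in itr-1 and 2.28, 2.69 and 1.21 TPM in N2. Every mutant library lay above every N2 library. Its log2 fold against N2 was 1.99 (SE 0.24, adjusted p = 3.49e-05) in the double mutant, 1.81 (SE 0.24, adjusted p = 0.000106) in nuo-6 and 1.11 (SE 0.24, adjusted p = 0.00514) in itr-1, where the stage score as a covariate left 0.61 (adjusted p = 0.3). Its neighbour ins-12, which lies with it in 2.56 kb of chromosome II (5554617 to 5557173), averaged 5.53 TPM in the double mutant, 3.44 TPM in nuo-6, 4.54 TPM in itr-1 and 3.94 TPM in N2, and was not called. The ins-17 gene had 28.6, 22 and 24.3 TPM in the double mutant, 21.8, 22.4 and 19.8 TPM in nuo-6, 15.5, 15.3 and 16.6 TPM in itr-1 and 13.2, 11.7 and 10.3 TPM in N2, a log2 fold against N2 of 1.03 (SE 0.11, adjusted p = 1.35e-05) in the double mutant and 0.81 (SE 0.11, adjusted p = 0.000106) in nuo-6. The ins-18 gene rose in the double mutant against N2 by 0.96 (SE 0.15, adjusted p = 0.000212), and ins-1 by 0.47 (SE 0.15, adjusted p = 0.0154). The call of ins-1 was lost without double-mutant replicate 3 (adjusted p = 0.0558) or N2 replicate 1 (0.0622).

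The ins-27 gene, the most abundant insulin-like gene after ins-35, had 59.3, 55.5 and 60.7 TPM in the double mutant, 47.3, 47.1 and 41.4 TPM in nuo-6, 43.1, 38.9 and 43 TPM in itr-1 and 56.5, 45.8 and 46.1 TPM in N2. Its fold in the double mutant against N2 was 0.24 (SE 0.09, adjusted p = 0.0332), but -0.024 under median-of-ratios scaling, and the call was lost without double-mutant replicate 1 (adjusted p = 0.0826) or 3 (0.0884) and without N2 replicate 2 (0.112) or 3 (0.115). It lies among 7 insulin-like genes, ins-24 to ins-30, in 25.4 kb of chromosome I (14012369 to 14037777). Of these, ins-30 rose in the double mutant against N2 by 0.75 (SE 0.13, adjusted p = 0.000479), with 15.6, 14.3 and 17.8 TPM in the double mutant and 9.55, 9.43 and 8.07 TPM in N2, which did not overlap. The ins-24 gene fell in itr-1 against N2, with a log2 fold of -0.72 (SE 0.21, adjusted p = 0.0194), a call lost without itr-1 replicate 2 (adjusted p = 0.0738), without N2 replicate 1 (0.0769) and once the stage score was a covariate (0.419). The ins-33 gene averaged 16.1 ± 3.62 TPM in the double mutant, 14.1 ± 5.99 TPM in nuo-6, 20.7 ± 1.74 TPM in itr-1 and 14.1 ± 2.07 TPM in N2 (SD, n = 3 each), with no call. The ins-37 gene rose in itr-1 against N2 by 0.83 (SE 0.22, adjusted p = 0.0147), but the stage score as a covariate left 0.13 (adjusted p = 0.791), and without N2 replicate 1 the adjusted p was 0.054.

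The receptor gene daf-2 was raised in every mutant strain. It had 20.4, 20.9 and 22.2 TPM in the double mutant, 14.4, 14.8 and 15.1 TPM in nuo-6, 15.5, 15 and 13.5 TPM in itr-1 and 10.5, 10.6 and 9.58 TPM in N2. Both single mutants overlapped each other, all double-mutant libraries lay above them and all N2 libraries below. Against N2 the log2 fold was 0.99 (SE 0.07, adjusted p = 1.11e-06) in the double mutant, 0.50 (SE 0.07, adjusted p = 0.000213) in nuo-6 and 0.48 (SE 0.07, adjusted p = 0.000682) in itr-1, and the double mutant was higher than nuo-6 by 0.49 (SE 0.07, adjusted p = 0.00152). Median-of-ratios scaling kept all of these calls, at 0.73, 0.32, 0.33 and 0.41 in the same order.

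Antimicrobial nlp genes of the epidermis diverged within the class. The list holds nlp-24 to nlp-34, of which 10 were tested. In the double mutant 3 rose and 1 fell against N2, in nuo-6 4 rose and 1 fell, and in itr-1 4 rose, with median log2 folds of 0.30, 0.15 and 0.24. Median-of-ratios scaling gave 3 rises and 2 falls in the double mutant, 3 rises and 1 fall in nuo-6, and 4 rises and 2 falls in itr-1. Without that scaling 46.3% of all genes rose in the double mutant, 37.3% in nuo-6 and 29% in itr-1, and 17%, 15% and 11.1% fell. The 3 of 10 rises in the double mutant were thus a smaller share than among all genes. The genes nlp-27, nlp-28, nlp-29, nlp-30, nlp-31 and nlp-34 lie in 10.9 kb of chromosome V (3978825 to 3989770). They arose by duplication and resemble each other, and how reads that fit several genes were counted is not given, so their single values are uncertain.

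Within this cluster nlp-27 and nlp-28 rose strongly. The nlp-27 gene had 172, 179 and 164 TPM in the double mutant, 155, 164 and 197 TPM in nuo-6, 109, 132 and 111 TPM in itr-1 and 36.7, 46.8 and 29.4 TPM in N2. Double-mutant and nuo-6 libraries overlapped, itr-1 lay below them and N2 lowest. The log2 fold against N2 was 2.18 (SE 0.15, adjusted p = 5.98e-07) in the double mutant, 2.18 (SE 0.15, adjusted p = 1.02e-06) in nuo-6 and 1.63 (SE 0.15, adjusted p = 2.41e-05) in itr-1. The nlp-28 gene had 43.1, 41.8 and 40.3 TPM in the double mutant, 36.4, 37.4 and 27.6 TPM in nuo-6, 13.2, 39.1 and 23.4 TPM in itr-1 and 10.6, 9.62 and 3.65 TPM in N2. Every mutant library lay above every N2 library, with a wide spread in itr-1. Against N2 the log2 fold was 2.36 (SE 0.38, adjusted p = 0.000282) in the double mutant, 2.05 (SE 0.38, adjusted p = 0.000996) in nuo-6 and 1.53 (SE 0.38, adjusted p = 0.00961) in itr-1, where the stage score as a covariate left 0.91 (adjusted p = 0.362).

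Of their neighbours in the cluster, nlp-30 fell in nuo-6 and in the double mutant, nlp-34 rose in itr-1, and nlp-29 and nlp-31 were not called in any comparison. The nlp-30 gene had 19.5, 19.8 and 18.5 TPM in the double mutant, 20.8, 14.8 and 17 TPM in nuo-6, 21.3, 19.5 and 24.98 TPM in itr-1 and 34.9, 27.4 and 23.9 TPM in N2. It fell against N2, with a log2 fold of -0.54 (SE 0.15, adjusted p = 0.00828) in the double mutant and -0.68 (SE 0.15, adjusted p = 0.00284) in nuo-6. The stage score as a covariate left -0.37 (adjusted p = 0.149) in the double mutant. The genes nlp-29 and nlp-31, known to be induced by fungal infection and wounding, spread widely in N2. The values of nlp-29 were 92.7, 72.5 and 95.4 TPM in the double mutant, 58.5, 63.2 and 52.6 TPM in nuo-6, 44.7, 57.2 and 65.2 TPM in itr-1 and 93.5, 45.9 and 34.8 TPM in N2, where replicate 1 lay within the range of the double mutant. The nlp-31 gene had 119.6, 64.1 and 52.5 TPM in N2, with the same library highest, and neither gene was called in any comparison. The nlp-34 gene averaged 60.5 ± 2.65 TPM in the double mutant, 57.3 ± 14.4 TPM in nuo-6, 84 ± 2.37 TPM in itr-1 and 51.6 ± 12.9 TPM in N2 (SD, n = 3 each), and rose in itr-1 against N2 by 0.72 (SE 0.18, adjusted p = 0.0107), with an adjusted p of 0.0559 with the stage score as a covariate.

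Outside the cluster, nlp-26 was highest in nuo-6. It had 84.4, 92.7 and 67.5 TPM in the double mutant, 122, 159 and 152 TPM in nuo-6, 70.7, 105 and 79.5 TPM in itr-1 and 46.5, 48.8 and 28.5 TPM in N2. All nuo-6 libraries lay above all others, the double mutant and itr-1 overlapped, and N2 was lowest. The log2 fold against N2 was 0.99 (SE 0.21, adjusted p = 0.00193) in the double mutant, 1.81 (SE 0.21, adjusted p = 4.54e-05) in nuo-6 and 1.05 (SE 0.21, adjusted p = 0.00379) in itr-1. The stage score as a covariate left 0.53 (adjusted p = 0.0928) in the double mutant and 0.47 (adjusted p = 0.314) in itr-1. The nlp-24 gene had 579, 453 and 538 TPM in the double mutant, 751, 766 and 757 TPM in nuo-6, 523, 571 and 613 TPM in itr-1 and 620.5, 503 and 527 TPM in N2. It rose in nuo-6 against N2 by 0.47 (SE 0.10, adjusted p = 0.00239), and fell in the double mutant against nuo-6, with a log2 fold of -0.54 (SE 0.10, adjusted p = 0.00455). Under median-of-ratios scaling the rise in nuo-6 was 0.28 and not called, and in the double mutant nlp-24 fell against N2, with a log2 fold of -0.35. The most abundant member, nlp-33, averaged 936 ± 36.4 TPM in the double mutant, 983 ± 150.1 TPM in nuo-6, 748 ± 42.8 TPM in itr-1 and 883 ± 40.3 TPM in N2 (SD, n = 3 each), and no comparison with N2 was called. Opposite nlp-24 lies glb-15, at 0.82 to 4.25 TPM in the 12 libraries, and opposite nlp-26 lies Y43F8C.3, at 4.34 to 15.9 TPM, whose reads cannot be told apart from theirs for the reason given above.

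**Figure D4:**
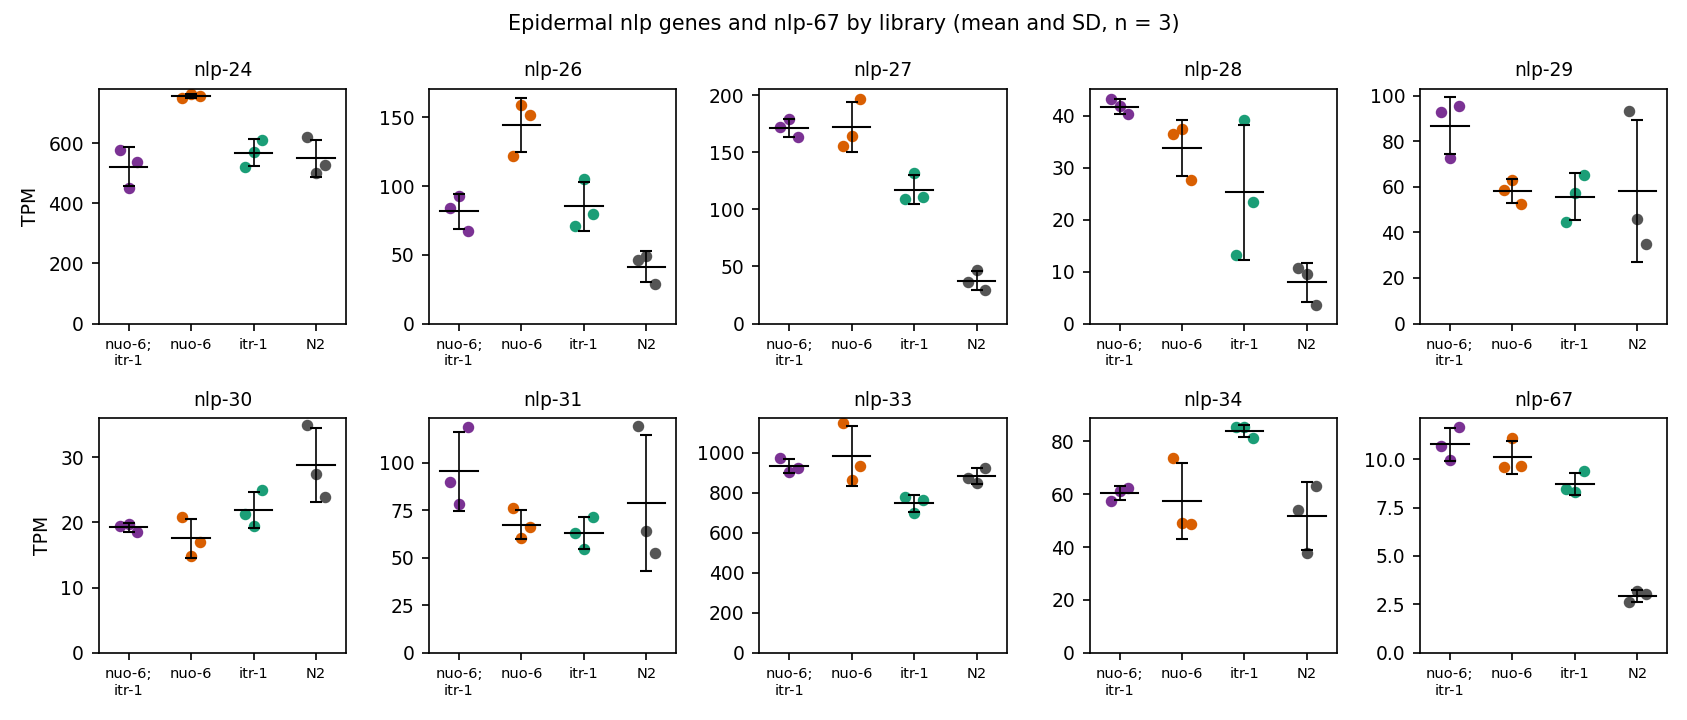
TPM of 9 antimicrobial nlp genes and nlp-67 (y axis, TPM, each panel on its own scale) by strain (x axis), with points for the 3 libraries and bars for the mean and SD. The genes nlp-27 and nlp-28 are lowest in N2 at means of 37.6 and 7.96 TPM, nlp-30 is highest in N2 at 28.7 TPM, and nlp-24 and nlp-26 are highest in nuo-6 at 758 and 144 TPM.

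The caenacin genes, a second family of epidermal antimicrobial peptides outside the rule, had more rises than falls. Of 9 tested, 5 rose and 1 fell in the double mutant against N2, 6 rose in nuo-6, and 4 rose and 1 fell in itr-1, and median-of-ratios scaling gave 5 and 1, 6 and 1, and 4 and 1. Their summed level was 458.7 to 573.3 TPM in the double mutant, 439 to 477 TPM in nuo-6 and 309 to 346 TPM in itr-1, against 254 to 320 TPM in N2. The low genes cnc-6, cnc-7, cnc-9 and cnc-11 averaged 0.152, 0.19, 0.261 and 0 TPM in N2. They passed the filter through mutant libraries only, so a fall could hardly be called for them. The rises in nuo-6 include all of them. Those in the double mutant include cnc-6, cnc-9 and cnc-11, and those in itr-1 cnc-6, cnc-7 and cnc-11. The excess of rises therefore says little about the family. For the counts of caenacin genes and of the markers below, 46.3%, 37.3% and 29% of all genes rose in the same order. The shares that fell were 17%, 15% and 11.1%. With that scaling 28.9%, 24.6% and 17.3% of all genes rose, and 29%, 24.5% and 21.2% fell. Of 8 epidermal marker genes, 4 rose and 1 fell in the double mutant against N2, 2 rose and 2 fell in nuo-6, and 4 rose and 3 fell in itr-1, and median-of-ratios scaling gave 3 and 4, 2 and 3, and 2 and 3. Their summed level was 2245 to 3061 TPM in the double mutant, 1988 to 2301 TPM in nuo-6 and 1718 to 2935 TPM in itr-1, against 1464 to 1577 TPM in N2, and their part in the results on epidermal peptide genes was not tested.

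Of the nlp genes outside the antimicrobial list, nlp-67 had the largest rise in each strain. It had 10.7, 9.96 and 11.7 TPM in the double mutant, 9.6, 11.1 and 9.63 TPM in nuo-6, 8.47, 8.29 and 9.38 TPM in itr-1 and 2.6, 3.2 and 3.05 TPM in N2. The 3 mutant strains lay close together, and all 9 of their libraries were above all N2 libraries. Against N2 the log2 fold was 1.58 (SE 0.10, adjusted p = 3.43e-07) in the double mutant, 1.49 (SE 0.10, adjusted p = 7.96e-07) in nuo-6 and 1.30 (SE 0.10, adjusted p = 6.37e-06) in itr-1. The nlp-8 gene, one of the sleep-related peptide genes of the ALA neuron, had 34.4, 29.7 and 36.6 TPM in the double mutant, 23, 23.1 and 20.8 TPM in nuo-6, 20.5, 19.2 and 21.3 TPM in itr-1 and 12.4, 14 and 11.3 TPM in N2. Its double-mutant libraries lay above all others and its N2 libraries below all others. The log2 fold was 1.35 (SE 0.10, adjusted p = 8.92e-07) for the double mutant against N2 and 0.57 (SE 0.10, adjusted p = 0.00324) against nuo-6. The nlp-12 gene, which encodes cholecystokinin-like peptides of a stretch-sensing neuron, rose against N2 by 0.98 (SE 0.10, adjusted p = 1.36e-05) in the double mutant, 0.74 (SE 0.10, adjusted p = 0.000146) in nuo-6 and 0.53 (SE 0.10, adjusted p = 0.00298) in itr-1. The nlp-3 gene, whose peptides promote egg laying, rose in the double mutant against N2 by 0.66 (SE 0.11, adjusted p = 0.000327) and in nuo-6 by 0.45 (SE 0.11, adjusted p = 0.00511), where median-of-ratios scaling left 0.27 without a call.

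The gene nlp-51 rose in all 3 mutant strains. It had 41.9, 38.7 and 43.7 TPM in the double mutant, 29.3, 25.9 and 25.1 TPM in nuo-6, 44.4, 30.6 and 36.8 TPM in itr-1 and 16.6, 18.6 and 17.6 TPM in N2. Here itr-1 overlapped the double mutant and lay above nuo-6. The log2 fold against N2 was 1.19 (SE 0.12, adjusted p = 9.08e-06) in the double mutant, 0.58 (SE 0.12, adjusted p = 0.00194) in nuo-6 and 1.03 (SE 0.12, adjusted p = 0.000122) in itr-1. Of the other rises of the double mutant against nuo-6, nlp-71 rose by 0.75 (SE 0.16, adjusted p = 0.00873) and nlp-5 by 0.66 (SE 0.13, adjusted p = 0.00839). The nlp-40 gene, made in the intestine and needed for the defecation rhythm, had 305, 254 and 325 TPM in the double mutant, 231, 209 and 223 TPM in nuo-6, 262, 225 and 245 TPM in itr-1 and 222, 211 and 209 TPM in N2. It rose in the double mutant against N2 by 0.45 (SE 0.09, adjusted p = 0.000984), but by 0.18 under median-of-ratios scaling, where it was not called.

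Falls among the nlp genes outside the antimicrobial list were few. The nlp-36 gene, the most abundant nlp gene after nlp-33 and nlp-24, had 243, 239.9 and 246 TPM in the double mutant, 271, 291 and 287 TPM in nuo-6, 246, 255 and 238 TPM in itr-1 and 303, 299 and 302 TPM in N2. Double-mutant and itr-1 libraries lay below all libraries of nuo-6 and N2. Against N2 the log2 fold was -0.31 (SE 0.04, adjusted p = 8.96e-05) in the double mutant and -0.29 (SE 0.04, adjusted p = 0.000566) in itr-1. It lies opposite dars-1, at 135 to 164 TPM in the 12 libraries, whose reads cannot be told apart from its own. The low gene nlp-66 fell in the double mutant against N2, with a log2 fold of -0.36 (SE 0.11, adjusted p = 0.0123), where the stage score as a covariate left -0.27 (adjusted p = 0.143) and leaving out N2 replicate 1 an adjusted p of 0.0554. The nlp-63 gene, at 0.872 TPM in itr-1 and 1.53 TPM in N2, fell in itr-1, with a log2 fold of -0.46 (SE 0.16, adjusted p = 0.0435). That call was lost without any 1 of 8 libraries in turn, itr-1 replicate 2 (adjusted p = 0.157) and N2 replicate 3 (0.118) among them, and once the stage score was a covariate (0.815).

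Few members departed detectably from the sum of both single-mutant effects. The interaction, which is the double mutant minus nuo-6 minus itr-1 plus N2 on the log2 scale, was called for 7 of 123 members, 5.69%, and for 12% of all genes tested. Positive interactions were called for 2 members, and for 3.69% of all genes, and negative ones for 5 members, and for 8.32% of all genes. Median-of-ratios scaling gave 2 positive and 4 negative calls, where 6.52% and 7.62% of all genes had them, and leaving out double-mutant replicate 2 gave 11 calls in all. Negative interactions were called for nlp-26 at -1.86 (SE 0.30, adjusted p = 0.00362), nlp-27 at -1.63 (SE 0.21, adjusted p = 0.00086), nlp-67 at -1.22 (SE 0.14, adjusted p = 0.000395) and ins-7 at -1.21 (SE 0.26, adjusted p = 0.0154). In nlp-27 and nlp-67 each single mutant rose against N2, and the libraries of the double mutant overlapped those of nuo-6. The fifth, nlp-24, at -0.59 (SE 0.14, adjusted p = 0.0232), was lost without nuo-6 replicate 2 (adjusted p = 0.0585), nuo-6 replicate 3 (0.0542) or N2 replicate 3 (0.0537), and under median-of-ratios scaling.

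A positive interaction was called for flp-33 and ins-27. The flp-33 gene had 30.7, 26.7 and 27.3 TPM in the double mutant, 17.7, 16.6 and 14.4 TPM in nuo-6, 19.4, 18.6 and 23.5 TPM in itr-1 and 20.3, 19.1 and 18.1 TPM in N2. All double-mutant libraries lay above all others, while nuo-6 lay below N2. The interaction was 0.68 (SE 0.15, adjusted p = 0.0168), and the double mutant rose against nuo-6 by 0.76 (SE 0.10, adjusted p = 0.000957) and against N2 by 0.53 (SE 0.10, adjusted p = 0.00109), where median-of-ratios scaling left 0.27 without a call. The gene lies opposite ntr-1, a receptor gene, which had 0.037 to 0.284 TPM in the 12 libraries. For ins-27 the interaction was 0.60 (SE 0.13, adjusted p = 0.0142). With the stage score as a covariate flp-33 had an adjusted p of 0.106 and both ins-27 and ins-7 one of 0.0949.

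In unscaled TPM, genes for precursor processing mostly rose where the precursors did. Of 11 precursor-processing genes, 8 rose and none fell in the double mutant against N2, 8 rose in nuo-6, and 7 rose and 2 fell in itr-1. Median-of-ratios scaling left 5 rises and 1 fall in the double mutant, 2 and 1 in nuo-6, and 1 and 2 in itr-1. Among all genes tested, 46.3%, 37.3% and 29% rose in the same order, and 17%, 15% and 11.1% fell. With that scaling 28.9%, 24.6% and 17.3% of all genes rose, and 29%, 24.5% and 21.2% fell. The scaled shares of processing genes that rose in nuo-6 and itr-1 were thus below those of all genes. The convertase gene egl-3 had 98, 81.6 and 97.9 TPM in the double mutant, 69, 63.6 and 59.7 TPM in nuo-6, 67.7, 58 and 68.4 TPM in itr-1 and 47.5, 48.7 and 42.2 TPM in N2. All double-mutant libraries lay above both single mutants, which overlapped, and N2 was lowest. Its log2 fold was 0.99 (SE 0.10, adjusted p = 7.79e-06) against N2, 0.52 (SE 0.10, adjusted p = 0.0049) against nuo-6 and 0.51 (SE 0.10, adjusted p = 0.00173) against itr-1. The carboxypeptidase gene egl-21 had 94.1, 80.2 and 103.98 TPM in the double mutant, 71.5, 67.5 and 66.9 TPM in nuo-6, 71.1, 63.7 and 73.2 TPM in itr-1 and 55.2, 57.2 and 54.1 TPM in N2, a log2 fold of 0.72 (SE 0.09, adjusted p = 3.78e-05) for the double mutant against N2. The gene sbt-1, for the chaperone of EGL-3, rose in the double mutant against N2 by 0.87 (SE 0.10, adjusted p = 2.79e-05), and the amidation genes pghm-1 and pgal-1 by 0.89 (SE 0.12, adjusted p = 0.000107) and 0.60 (SE 0.06, adjusted p = 1.45e-05). The third amidation gene, pamn-1, was not called in the double mutant against N2 and fell in itr-1, with a log2 fold of -0.36 (SE 0.10, adjusted p = 0.0186), a call lost without itr-1 replicate 2 (adjusted p = 0.0622), without N2 replicate 1 (0.0735) and once the stage score was a covariate (0.655). It had 22.4, 20.1 and 24.4 TPM in the double mutant, 20.9, 21.8 and 20.2 TPM in nuo-6, 19.3, 18.3 and 20.7 TPM in itr-1 and 29.3, 24.7 and 22.1 TPM in N2.

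**Figure D5:**
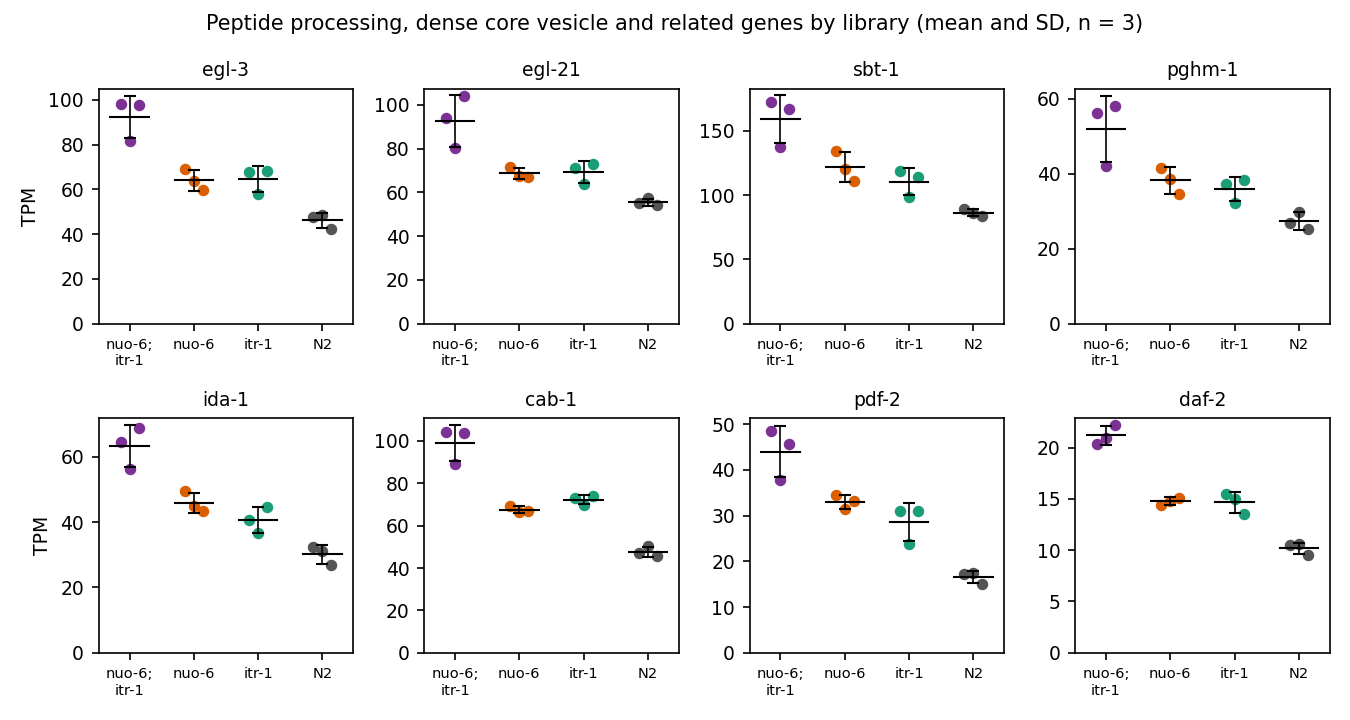
TPM of 4 precursor-processing genes, the dense core vesicle genes ida-1 and cab-1, the neuropeptide gene pdf-2 and the insulin receptor gene daf-2 (y axis, TPM, each panel on its own scale) by strain (x axis), with points for the 3 libraries and bars for the mean and SD. In each panel the double mutant has the highest mean, such as 92.5 TPM for egl-3, and N2 the lowest, 46.1 TPM for egl-3.

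Genes of the dense core vesicle mostly rose in the double mutant, though fewer did after rescaling. Of 26 tested, 17 rose and 1 fell in the double mutant against N2, 12 rose and 2 fell in nuo-6, and 6 rose in itr-1, against 8 and 3, 7 and 2, and 2 and 3 under median-of-ratios scaling. Among all genes tested, 46.3%, 37.3% and 29% rose in the same order, and 17%, 15% and 11.1% fell. With that scaling 28.9%, 24.6% and 17.3% of all genes rose, and 29%, 24.5% and 21.2% fell. The 8 of 26 rises left in the double mutant thus lay near the share of all genes. The largest rises of the double mutant were ida-1, for a vesicle membrane protein, at 1.05 (SE 0.10, adjusted p = 7.15e-06) and cab-1 at 1.04 (SE 0.07, adjusted p = 4.51e-07). The release factor gene unc-31 was not called, with a fold of 0.18 (SE 0.11, adjusted p = 0.18). The gene tbc-8, for a putative GTPase-activating protein of RAB-2, was listed at 0 in all 3 nuo-6 libraries. It had 2.94, 3.18 and 2.81 TPM in the double mutant, 2.28, 2.15 and 2.21 TPM in itr-1 and 1.56, 1.27 and 1.61 TPM in N2.

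Of 7 other neuropeptide precursor genes that the rule leaves out, all rose in the double mutant against N2, 4 in nuo-6 and 4 in itr-1, and 7, 3 and 2 did so under median-of-ratios scaling. The shares of all genes that rose were 46.3%, 37.3% and 29%, and 28.9%, 24.6% and 17.3% with that scaling. The gene pdf-2, for a pigment-dispersing factor, had 48.6, 37.8 and 45.6 TPM in the double mutant, 34.5, 31.4 and 33.2 TPM in nuo-6, 31, 23.9 and 31.1 TPM in itr-1 and 17.1, 17.5 and 15 TPM in N2, a log2 fold against N2 of 1.35 (SE 0.12, adjusted p = 3.61e-06) in the double mutant, 0.96 (SE 0.12, adjusted p = 6.46e-05) in nuo-6 and 0.75 (SE 0.12, adjusted p = 0.000897) in itr-1. Its partner pdf-1 rose by 0.97 (SE 0.09, adjusted p = 5.38e-06) in the double mutant and 0.68 (SE 0.09, adjusted p = 0.000102) in nuo-6. Receptor genes were called less widely. Of 61 tested, 25 rose and none fell in the double mutant, 14 rose in nuo-6, and 5 rose and 3 fell in itr-1, which is 41.0% called in the double mutant where 63.3% of all genes were. Of all genes, 52.3% were called in nuo-6 and 40.1% in itr-1. The receptor genes were mostly low. Their summed level was 188 to 214 TPM in the double mutant and 141 to 156 TPM in N2. A log2 fold on TPM + 1 understates the change of low genes. The part of level in the share of receptor genes called was not tested. Median-of-ratios scaling gave 11 rises and 3 falls in the double mutant. The receptor gene npr-40 had the largest called rise against N2 in nuo-6, at 1.07 (SE 0.13, adjusted p = 5.22e-05), with 1.06 (SE 0.13, adjusted p = 3.63e-05) in the double mutant and 1.00 (SE 0.13, adjusted p = 0.000253) in itr-1.

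Genes outside the set that ran most like its 3 members of largest fold were found by Pearson's r on log2(TPM + 1) over the 12 libraries, given as a description. For ins-35 they were T22F7.4 (r = 0.979), ZC8.6 (0.976) and K06B9.6 (0.974). For nlp-28 they were C01G6.4 (0.975), lgg-1 (0.972) and grd-3 (0.971). For nlp-27 they were F35B3.4 (0.989), the collagen gene col-160 (0.988) and C30F12.5 (0.987).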

How the data were processed

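The authors deposited TPM values per gene for 12 RNA-seq libraries, 3 biological replicates of each of 4 strains. Each library sums to 1000000 TPM. The genome build was WBcel235, per the submitters' processing notes. Which aligner, counter and annotation release they used is not given in the sources used here. Symbols were matched through the WBcel235 annotation (all 46926 identifiers matched). The members and gene lists were chosen with earlier results of these data known. The 15230 genes that reached 1 TPM in 3 or more libraries were tested on log2(TPM + 1) with limma 3.58.1 in R 4.3.3, with all 4 strains in the fit and a trended prior. P-values were two-sided, Benjamini-Hochberg adjusted over all genes tested, and called under 0.05. A log2 fold understates the change of low genes. SE is the moderated standard error. The fit was tested on simulated data. Named members were up to 8 with the largest called rises and 8 with the largest called falls per comparison, the 5 of highest mean TPM per class, a list of well-known peptide genes, and up to 6 called genes per pathway list by adjusted p. The genes flp-2, nlp-34, ins-12, ins-30 and unc-31 were named after their values were seen. Alternatives changed the pseudocount, filter, scaling, libraries, prior, replicate block and stage score. Sequences are not shown here.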

Additional observations from a re-analysis of the deposited data

Results flagged for a closer look

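A test of the interaction asks whether the effect of one mutation differs in the presence of the other, and 7 members passed it with limma at an adjusted p under 0.05. The interaction on the log2 scale was -1.86 for nlp-26, -1.63 for nlp-27, -1.22 for nlp-67, -1.21 for ins-7, -0.59 for nlp-24, 0.68 for flp-33 and 0.60 for ins-27. With the stage score as a covariate, the calls of flp-33, ins-27 and ins-7 were lost, and flp-33 was also lost without all libraries numbered 2, at 0.67 (adjusted p = 0.0745).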

How the results depend on the processing

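Of 173 called folds of named members, 101 kept direction and call under every alternative fitted (up to 23), and 135 did so when each library was left out in turn. Median-of-ratios scaling gave 32 called members in itr-1 against N2 and 15 in the double mutant against nuo-6. Quantile normalization gave 45 in nuo-6 against N2, 32 in itr-1 against N2 and 17 in the double mutant against nuo-6, and the stage score as a covariate gave 53 in the last. With 1 library left out, the called members numbered 88 to 98 in the double mutant, 66 to 82 in nuo-6 and 44 to 58 in itr-1 against N2, 12 to 41 in the double mutant against nuo-6, 64 to 87 against itr-1, and 6 to 11 for the interaction. Direction turned for ins-27 in the double mutant against N2 under median-of-ratios scaling (-0.024) and for the caenacin gene cnc-3 in the same comparison with the stage score as a covariate (0.0051). Summed TPM moved beyond 1 SD under median-of-ratios scaling to 1104 for flp in nuo-6 and 889 in N2, 3504 for nlp in the double mutant and 3279 in N2, and 237 for insulin-like genes in N2. The cause was not tested.

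The deviations of same-numbered libraries from their strain means correlated above 0.1 in 11 of 18 pairs (from -0.0195 to 0.506), against -0.474 to 0.293 for other numbers. All 3 pairs of nuo-6 with N2 exceeded 0.1 (0.112 to 0.160), so the numbers pair these strains by that measure, while in each other combination of strains at least 1 pair did not. Of 12 libraries, 7 correlated best with one of their own number, a hint from the data and not from the design. With the replicate number as a block, 99 members were called in the double mutant, 82 in nuo-6 and 62 in itr-1 against N2, 35 in the double mutant against nuo-6, 87 against itr-1, and 10 for the interaction. Without all libraries numbered 2, an alternative chosen after seeing the data, 90 rose and 5 fell in the double mutant, 64 rose and 3 fell in nuo-6, and 52 rose and 2 fell in itr-1 against N2.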

Other observations

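Other tissues gave the following counts of markers called against N2. Of 8 sperm genes, 2 fell in the double mutant, 2 fell in nuo-6 and 6 rose in itr-1. Of 5 body muscle genes, 3 fell in the double mutant, 2 in nuo-6 and 3 in itr-1. Of 7 intestinal genes, 5 rose in the double mutant, 3 in nuo-6 and 2 in itr-1. Of 5 pharyngeal genes, 1 rose and 1 fell in the double mutant, 1 rose and 1 fell in nuo-6, and 2 rose in itr-1. Among all genes tested, 46.3% rose and 17% fell in the double mutant, 37.3% and 15% in nuo-6, and 29% and 11.1% in itr-1. With median-of-ratios scaling the intestinal rises and falls were 3 and 1, 0 and 2, and 1 and 1 in the same order. Those of sperm genes in itr-1 were then 4 and 1. Rises then made up 28.9%, 24.6% and 17.3% of all genes, and falls 29%, 24.5% and 21.2%. The part of these tissues in the peptide results was not tested.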
